A study of Mus musculus with 2 samples.

Results

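The genes of the cytosolic ribosomal proteins were followed across 2 one-colour Agilent microarrays of mouse embryonic stem cells. They were chosen by name: every non-control probe whose array gene name was Rpl or Rps with a number, or Rplp0, Rplp1, Rplp2 or Rpsa, apart from pseudogenes marked as such and the Rps6k kinases. This gave 87 genes with 186 probes out of 56605 probes on the array. Of these genes, 77 encode a ribosomal protein itself (43 of the large subunit, 31 of the small subunit and 3 of the stalk), 8 are paralogs, 1 is a retrotransposed copy (Rpl37rt) and 1 encodes a protein that binds Rps19 (Rps19bp1). Ribosomal protein genes that carry other names, such as Fau and Rack1, were not caught by the rule and are given separately.

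Both arrays carried RNA of the line 46C, a mouse embryonic stem cell line. The cells were kept in 15% serum with LIF at 1000 U/ml on a feeder layer, which was taken off before the RNA was collected, and 0.2 ug of RNA was labelled with the dye Cy3. The first array carried a control hairpin (shCtrl, which the sample's title calls wild type) and the second a hairpin that targets LincU (shLincU), a long noncoding RNA. LincU itself was not analysed here, so the knockdown has no check on these arrays and every direction rests on the labels. Each group had 1 array, so nothing was tested and no difference below has a replicate error.

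The cytosolic ribosome has a small subunit, which decodes the messenger RNA, and a large subunit, which joins the amino acids. Their proteins are needed in fixed proportions, and their messages are among the most abundant in growing cells such as embryonic stem cells. Most of these messages begin with a C followed by an unbroken run of pyrimidines, the terminal oligopyrimidine (TOP) motif, through which their translation follows growth signalling. Several genes have a paralog with a tissue-restricted role, and many have processed copies elsewhere in the genome.

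To show where a pyrimidine run crosses the annotated start and where none does, 7 members are given from 30 bases before it to 15 after. The bases are taken from the RefSeq promoter windows (build GRCm38.p6, 5′ to 3′ on the gene's strand). Capitals mark the run of pyrimidines that crosses the start. The first 4 were picked among ribosomal protein genes of both subunits for a long run. Their base at the annotated start is C in Rpl35, Rpl15 and Rps6 and T in Rpl27a, and capitals among the first 30 bases lie before that start. The last 3 are the paralogs with the lowest values on the arrays, in which no run crosses the start. A run of at least 5 across the annotated start was absent in 46 of the 66 members with a window. Whether that start is the first base of the message was not tested. A missing run therefore does not show that a message lacks a TOP motif.
Rpl35, chr2:39005117-39005161 (-): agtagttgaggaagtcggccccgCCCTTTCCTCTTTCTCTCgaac
Rpl15, chr14:18270972-18271016 (-): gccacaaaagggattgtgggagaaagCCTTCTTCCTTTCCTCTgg
Rpl27a, chr7:109519165-109519209 (+): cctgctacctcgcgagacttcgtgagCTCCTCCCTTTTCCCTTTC
Rps6, chr4:86857353-86857397 (-): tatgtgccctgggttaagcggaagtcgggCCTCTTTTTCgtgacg
Rpl3l, chr17:24727796-24727840 (+): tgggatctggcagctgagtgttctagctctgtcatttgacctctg
Rpl10l, chr12:66284387-66284431 (-): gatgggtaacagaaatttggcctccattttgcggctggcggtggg
Rpl39l, chr16:10170198-10170242 (+): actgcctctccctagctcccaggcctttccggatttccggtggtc

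A window was found by symbol for 66 of the 87 members. In 20 of them (30.3%) a run of at least 5 pyrimidines crossed the annotated start, beside 11.8% of all 27025 genes in the RefSeq table. A run of at least 8 pyrimidines lay within 30 bases of the start in 53.0% of the members and in 25.8% of all genes. The start base was C in 33.3% of members and in 18.9% of all genes. On either strand of the whole window of 300 bases, CCGGAAG, the core bound by ETS factors, was present in 39.4% of members and 9.93% of all genes. The GC box GGGCGG was present in 62.1% of members and 38.2% of all genes, AAGATGGC, which YY1 binds, in 9.09% and 3.19%, the E-box CACGTG in 9.09% and 8.09%, and TATAAA in 10.6% and 15.7%. These matches describe letters in the windows and show no binding. Members with a run across the start had a median difference of 0.10 between the arrays (n = 20) and members without one 0.084 (n = 46), on the scale defined next.

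Each signal was the processed intensity of Agilent's software in scanner units, and each array was scaled by its own 75th percentile over probes, 626 units for shCtrl and 420 units for shLincU. A difference is the log2 value of shLincU minus that of shCtrl after this scaling, averaged over the probes of a gene that were well above background on both arrays. A higher value means higher on shLincU. The arrays had 60.9% (shCtrl) and 57.9% (shLincU) of probes well above background, and 21018 genes were measured on both. Embryonic stem cell markers were present on both arrays, with 12 of 12 measured and a median difference of 0.01. The fibroblast list, which stands for feeder cells, had 11 of 12 measured, of which 7 were at least 1.5-fold lower (4.84% of all genes were) and 2 at least 1.5-fold higher on shLincU (4.78% of all genes were). The summed level of that list, in multiples of the 75th percentile, was 14.3 on shCtrl and 7.58 on shLincU, and none of its measured genes was at 0. Its members did not share a direction, and neither did its collagens. The matrix genes Dcn and Lox had -2.41 and -2.15, and the collagen Col1a2 had -1.202. The collagens Col3a1 and Col1a1 had 0.64 and 0.45. Col3a1 was dim, with a scaled log2 value of -2.39 on shCtrl, and the probes of Col1a1 lay 0.80 apart. The part of the fibroblast list in the ribosomal protein values was not tested. In such bulk RNA, fewer cells of a type and less RNA per cell cannot be told apart.

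All 87 genes were measured on both arrays, through 184 of their 186 probes. The remaining probes, 1 for Rpl11 and 1 for Rps2, were not well above background on either array, and both genes had another probe. No member spot was saturated, although signals reached 308500 units on shCtrl and 261600 units on shLincU. The precision of the spots was high for 65 member probes printed 10 times each. Their SD over spots had a median of 0.035 log2 on shCtrl and 0.033 on shLincU, which put the standard error of a difference over spots at a median of 0.016. Different probes of one gene varied more: in the 60 genes with at least 2 measured probes the SD between probes had a median of 0.11. The error given by the scanner software for a member's difference had a median of 0.20 and is mostly a preset share of the signal. None of these errors covers variation between cultures.

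The ribosomal protein genes lay close together and slightly above 0. Their median difference was 0.11 with quartiles at 0.053 and 0.19, that is 1.08-fold, and the median of all genes was 0.02. Of the 87 members 72 (82.8%) were above 0, beside 53.1% of all genes. This direction depended on the scaling: the members' median was -0.036 with quantile normalization, where 30 members were above 0, -0.046 in the deposited value table, where 24 were, and -0.79 when the arrays were scaled to 8 E1A spike-in probes, where 0 were. On that last scaling the median of all genes was -0.87, and without any scaling the members' median was -0.47. No member was 1.5-fold higher on shLincU (4.78% of all genes were) and 2 were 1.5-fold lower (4.84% of all genes were). At 2-fold the counts were 0 higher (1.14% of all genes) and 0 lower (1.53% of all genes). Of the 184 member probes, 144 were above 0 (53% of all probes were), 1 was 1.5-fold higher (5.39% of all probes) and 3 were 1.5-fold lower (4.71% of all probes).

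**Figure D1:**
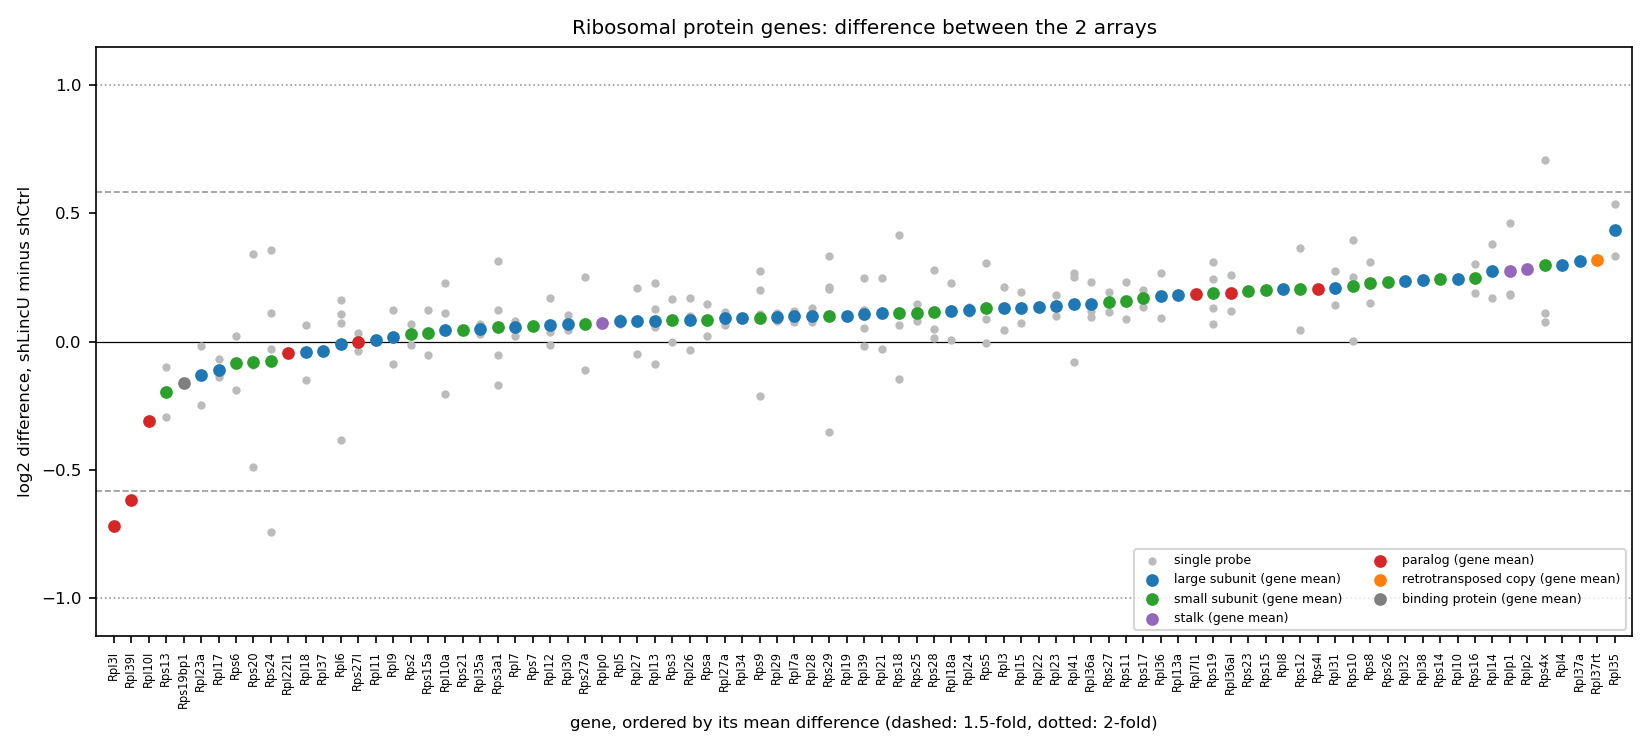
Log2 difference (shLincU minus shCtrl, vertical axis) of each of the 87 genes in order of value, coloured by role, with single probes as grey points. The values run from -0.72 to 0.44 with the 75th percentile scaling, only Rpl3l and Rpl39l pass the dashed 1.5-fold line, and the median turns negative with quantile normalization, in the deposited table and with spike-in scaling.

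The 77 genes that encode a ribosomal protein itself ranged from -0.20 to 0.44 with an SD of 0.11, and 68 of them were above 0 with the 75th percentile scaling. The SD over all genes was 0.40. Since 81 of the members lay among the 10% of genes with the highest signal, those genes are the nearer background. The 2102 of them had a median of 0.069 and an SD of 0.21, and 65.7% were above 0. Differences within 0.3 of 0 were found in 93.1% of members, 87.9% of these bright genes and 69.3% of all genes. Among probes over 100000 units on shCtrl the spread was alike, with an SD of 0.15 in the 114 member probes and 0.14 in the 374 other probes. Between 10000 and 100000 units the SD was 0.16 in the 48 member probes and 0.23 in the 2846 other probes.

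The large subunit had a median of 0.10, with 38 of 43 genes above 0. Rpl35 was the highest member of all. Its 2 probes read 127900 units on shCtrl and 124500 on shLincU, and 227500 and 192800 units, which gave differences of 0.54 and 0.34 and a gene value of 0.44. The unscaled signal was thus lower on shLincU for both probes, and the positive value came with the scaling. Rpl35 was above 0 under each of the 11 alternatives run for it other than spike-in scaling, at 0.22 to 0.44.

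Rpl37a is a zinc-finger protein of the large subunit. Its probe printed 10 times read 285100 units on shCtrl and 238700 on shLincU, a difference of 0.32 with a standard error over spots of 0.022. A second probe that shares 56 of its bases read 260600 and 217300 units and gave 0.31. The probes thus lay 0.006 apart. The size of the difference depended on the scaling, since the gene value was 0.027 with quantile normalization and 0.017 in the deposited table. Rpl4, measured by 1 spot at 114400 units on shCtrl and 94540 on shLincU, had 0.30.

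Rpl37rt, a retrotransposed copy, read 273700 and 229300 units with a difference of 0.32, which was 0.0074 with quantile normalization. The probe named for Rpl37 read 124.6 and 81.55 units with a difference of -0.037. Signals of a retrotransposed copy and its source gene cannot be separated by probe name, so both values are uncertain.

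Rpl10, which joins the large subunit late in its assembly, read 275300 units on shCtrl and 219200 on shLincU, with a difference of 0.25. Rpl38, known for selective translation of Hox messages in the mouse embryo, read 228300 and 181100 units, with 0.24. Rpl5 and Rpl11 form a complex with 5S ribosomal RNA that binds Mdm2 and so links ribosome assembly to p53. Rpl5 had a probe printed 10 times at 127600 and 91270 units (0.091) and a single spot at 58730 and 41400 units (0.07), for a gene value of 0.081. Rpl11 read 224600 and 151300 units, with 0.005. All 4 genes lay within 0.25 of 0, and each had a negative value both with quantile normalization and in the deposited table.

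At the lower end of the large subunit, Rpl23a, which sits at the exit of the nascent chain, had probes at -0.018 (144400 and 95720 units, 10 spots) and -0.25 (86020 and 48710 units, 1 spot), for a gene value of -0.13. Rpl17 had 3 probes printed 10 times each, at 80710 and 49230 units, 83500 and 51460 units, and 123300 and 78910 units. Their differences were -0.14, -0.12 and -0.07. These 3 probes were on the same side of 0 in a family where 54 of 65 such probes were above it. Rpl17 was singled out after its values were seen.

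The small subunit had a median of 0.11, with 27 of 31 genes above 0. Rps4x, an X-linked protein of the 40S body, had the highest gene value at 0.30. That value rested on 1 dim probe with no genome position on the array (28.46 units on shCtrl, 31.26 on shLincU, difference 0.71). Its other probes read 80050 and 58040 units (0.11) and 105400 and 74580 units (0.075), and without the dim probe the gene stood at 0.093.

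Rps19, the gene most often mutated in Diamond-Blackfan anaemia, had 4 probes at 0.067, 0.13, 0.25 and 0.31 and a gene value of 0.19. The probe at 0.31 was the dimmest, at 137.6 units on shCtrl and 114.5 on shLincU. The pair printed 10 times read 170200 and 119700 units, and 223400 and 177800 units. Rps25, required for initiation at several viral internal ribosome entry sites, had 0.080 (152300 and 108100 units) and 0.15 (26420 and 19620 units). Rpsa, which is also known as a laminin receptor, had 0.020 (213500 and 145400 units) and 0.15 (201200 and 149700 units). Each of these genes was above 0 with the 75th percentile scaling, and each was below 0 with spike-in scaling. In the deposited table Rps25 and Rpsa were also below 0, at -0.0021 and -0.11.

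Rps6 is the ribosomal protein phosphorylated by the S6 kinases downstream of mTOR and ERK signalling. Both of its probes were printed 10 times. One read 89680 units on shCtrl and 52790 on shLincU, a difference of -0.19, and the other read 167500 and 114100 units, a difference of 0.021. The gene value was -0.084. The gap between the probes of 0.21 was larger than either probe's standard error over spots, of which the highest among all member probes was 0.039. Rps13, a protein of the subunit interface, was the lowest gene of either subunit at -0.20. Its probe printed 10 times read 99890 and 62690 units (-0.098), and a single spot read 969.6 and 531.6 units (-0.29).

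Rps24 was the only member whose probes differed by more than 1. A probe across an exon junction of the transcript NM_011297 read 200700 units on shCtrl and 80510 on shLincU, a difference of -0.74 and the lowest of all 184 member probes. A junction probe of NM_207634 read 33650 and 24440 units (0.11). A probe of NM_207635 read 176800 and 152300 units (0.36), and the fourth, for a predicted transcript, read 3095 and 2038 units (-0.028). The 2 junction probes are shown, the first whole and the second by its first 40 of 60 bases, with coordinates in build mm9 as the array gives them.
Rps24 probe at 0.11 (NM_207634), chr14:25311190-25312666 (+): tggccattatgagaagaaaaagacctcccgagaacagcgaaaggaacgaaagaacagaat
Rps24 probe at -0.74 (NM_011297), chr14:25312695-25315015 (+): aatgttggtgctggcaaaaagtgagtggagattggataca
None of these Rps24 spots lay beside spots that disagreed between the arrays, and each probe was printed once. The gene value was -0.075, and 0.15 without the probe at -0.74. Rps24 has several spliced forms that differ near the 3′ end, and whether the low value belongs to one form or to one spot was not tested.

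Overlapping probes also disagreed in Rps20, where a pair of probes with 1 spot each overlap by 44 bases. The first 40 bases of each are shown, with the part that both stretches share in capitals (35 bases, build mm9).
Rps20 probe at 0.34, chr4:3761615-3761674 (-): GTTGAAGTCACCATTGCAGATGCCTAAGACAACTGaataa
Rps20 probe at -0.09, chr4:3761620-3761679 (-): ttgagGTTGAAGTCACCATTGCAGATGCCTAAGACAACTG
The first read 164100 units on shCtrl and 139600 on shLincU (0.34), and the second read 199500 and 125900 units (-0.09). They differed by 0.43, the largest gap among 4 pairs of overlapping probes, whose smallest gap was 0.006 in Rpl37a. The third Rps20 probe, away from these, read 647.5 and 309.8 units (-0.49). Whether the gap comes from the spots or from the probes was not tested. The gap of 0.43 exceeds the distance from 0 of at least 81 of the 87 members, since those lay within 0.3.

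The stalk proteins recruit elongation factors to the large subunit. Rplp0, which anchors the stalk, read 208000 units on shCtrl and 146700 on shLincU, with a difference of 0.071. Rplp2 read 279700 and 228300 units, with 0.28. Rplp1 had probes at 145400 and 134500 units (0.46), 208100 and 158600 units (0.18) and, printed 10 times, 214300 and 163700 units (0.19), for a gene value of 0.28. All 3 stalk genes were above 0 with the 75th percentile scaling, but Rplp0 and Rplp2 were below 0 with quantile normalization (-0.11 and -0.033). Rplp1 was above 0 under every alternative run for it other than spike-in scaling, at 0.082 or more.

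The 8 paralog values had a median of -0.023, an SD of 0.37 beside 0.11 in the 77 genes, and a range from -0.72 to 0.21, with 3 above 0. Several paralog probes were dim, and among probes up to 10000 units on shCtrl the SD was 0.30 in the 22 member probes and 0.43 in the 28494 other probes. The lowest 3 of all 87 members were paralogs. Rpl3l, which replaces Rpl3 in heart and skeletal muscle, read 65.91 units on shCtrl and 26.86 on shLincU, for -0.72 beside 0.13 for Rpl3. It is dim on both arrays, its scanner error was 0.34, and with normexp background correction its difference was -0.021.

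Rpl39l, the form of Rpl39 found in male germ cells and also expressed in embryonic stem cells, read 10010 units on shCtrl and 4374 on shLincU. Its difference was -0.62 beside 0.11 for Rpl39, whose 5 probes ran from -0.018 to 0.25. The paralog's value lay below each of those 5 probes and outside the scanner error of 0.20. Under the alternatives other than spike-in scaling it stayed between -0.66 and -0.62. It rests on 1 spot in the upper rows of the slide.

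Rpl10l, an autosomal copy used in male meiosis, read 2998 and 1626 units, for -0.31 beside 0.25 for Rpl10. Its range under the alternatives other than spike-in scaling was -0.35 to -0.29. The probes of Rpl3l and Rpl10l are printed below because the differences of these paralogs rest on 1 probe each (build mm9, coordinates of the array). The longest run of bases that a paralog's probe shared with a probe of its parent was 7 in Rpl3l and 5 in Rpl10l. This compares probes only. The match of a paralog's probe to the whole message of its parent was not tested, so signal from the parent cannot be told apart.
Rpl3l probe, chr17:24872413-24872681 (+): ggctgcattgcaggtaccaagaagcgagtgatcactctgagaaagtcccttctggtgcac
Rpl10l probe, chr12:67384868-67384927 (-): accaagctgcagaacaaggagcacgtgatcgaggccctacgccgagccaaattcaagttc

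The other 5 pairs lay closer together. Rpl22l1 had -0.045 (43820 and 28530 units) beside 0.13 for Rpl22, which is known to repress it. Rps27l, a p53 target, had -0.0018 beside 0.15 for Rps27. Rpl7l1, a nucleolar relative of Rpl7, had 0.19 beside 0.056. Rpl36al, an intronless copy, had 0.19 beside 0.15 for Rpl36a, and Rps4l had 0.21 beside 0.30 for Rps4x. In each of these 5 pairs the gap was at most 0.18, below the scanner error of 0.20. Rps19bp1, which encodes a partner of Rps19 and of the deacetylase SIRT1, read 14930 and 8952 units, with -0.16.

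**Figure D2:**
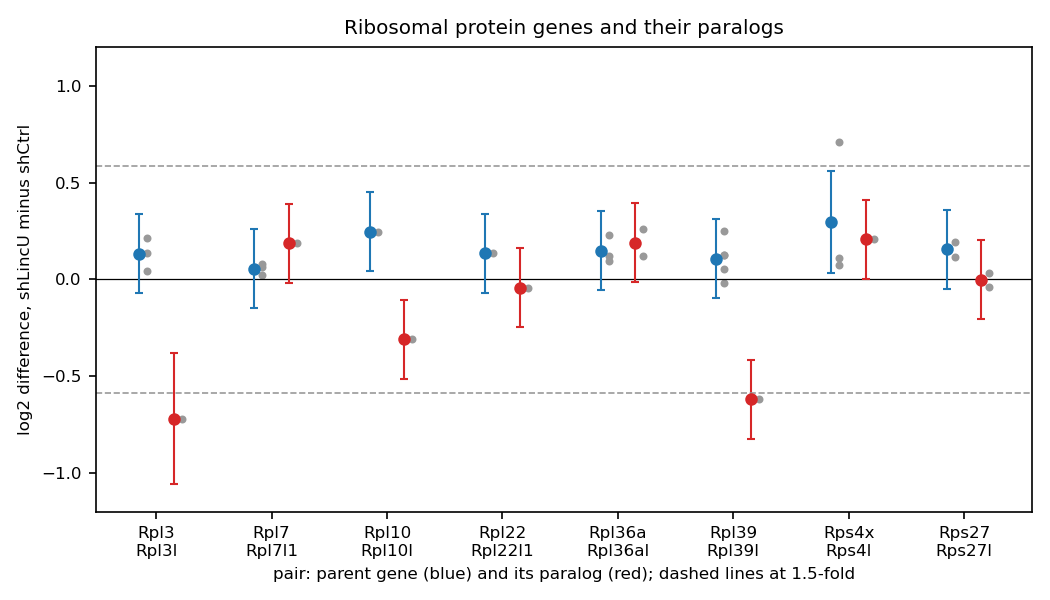
Log2 difference (shLincU minus shCtrl, vertical axis) of 8 parent genes (blue) and their paralogs (red), with single probes in grey and bars for the scanner software's error. Rpl3l, Rpl39l and Rpl10l lie at -0.72, -0.62 and -0.31, below their parents at 0.13, 0.11 and 0.25.

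The members' differences followed their signal level. The 114 member probes above 100000 units on shCtrl had a median of 0.14, with 107 above 0. The 48 between 10000 and 100000 units had a median of 0.062, and the 22 at or below 10000 units had -0.036, with 8 above 0. Over the 184 probes the rank correlation of level and difference was 0.55 and Pearson's r was 0.40. These probes share 2 arrays and often a gene, so the coefficients are descriptions.

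Above 10000 units, probes of other genes showed a trend of the same direction. Over the whole range they did not. With probes in 10 groups from dim (1) to bright (10), the other probes' median fell from 0.13 in group 1 to -0.023 in group 8. It was 0.059 in group 10, which held 161 of the 184 member probes. The 374 other probes above 100000 units had a median of 0.17 with 87.2% above 0, and the 2846 between 10000 and 100000 units had 0.032. Above 10000 units the rank correlation was 0.53 in 162 member probes and 0.35 in 3220 others. The members' median of 0.14 in the top band was therefore no higher than that of other probes there. The E1A spike-ins are added RNAs that are the same on both arrays. They ran opposite to the trend of the probes above 10000 units. After the 75th percentile scaling they were at 1.06 at 63.33 units on shCtrl and at 0.51 at 343700 units. What part signal level has in the members' values was not tested.

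**Figure D3:**
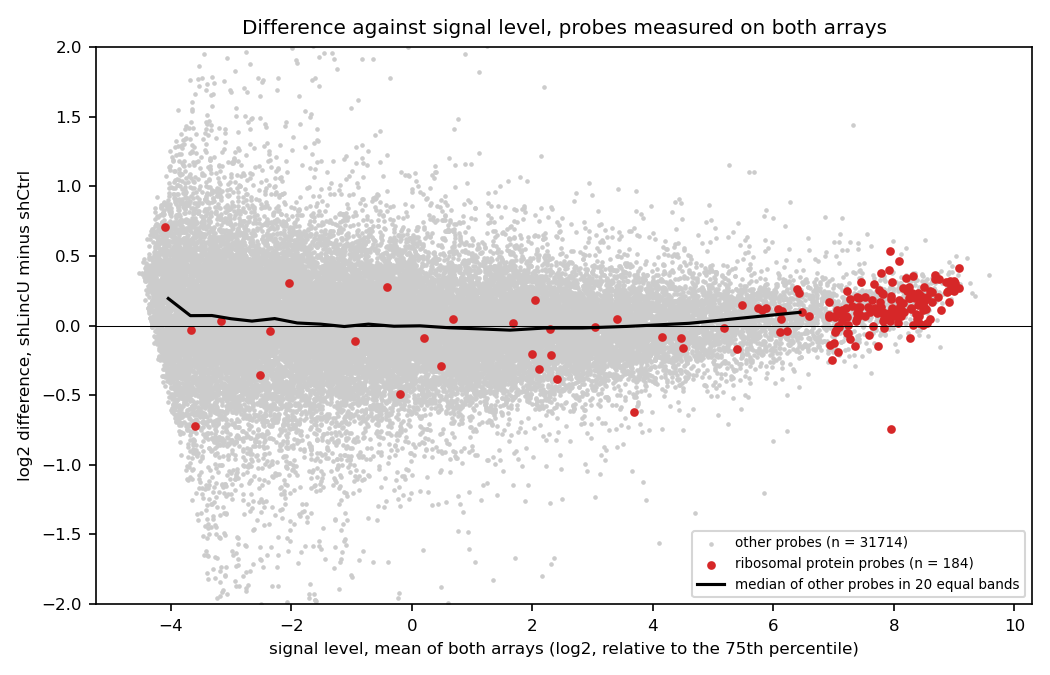
Log2 difference (vertical axis) against mean log2 signal level relative to the 75th percentile (horizontal axis), with 184 ribosomal protein probes in red, other probes in grey and the other probes' running median in black. Most red points lie at the right, where the grey probes also lie above 0. Points beyond 2 in either direction are not shown.

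Cyclic loess and quantile normalization remove a trend with level by construction. With loess the members' median was 0.028, with 59 above 0, and with quantile normalization it was -0.036, while the median of all genes was 0.0076 and 0.012. Normexp correction gave 0.069 for the members and 0.088 for all genes. The choice of rows on the slide mattered little for the median, which was 0.11 in the upper rows (75 genes) and 0.11 in the lower rows (72 genes).

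**Figure D4:**
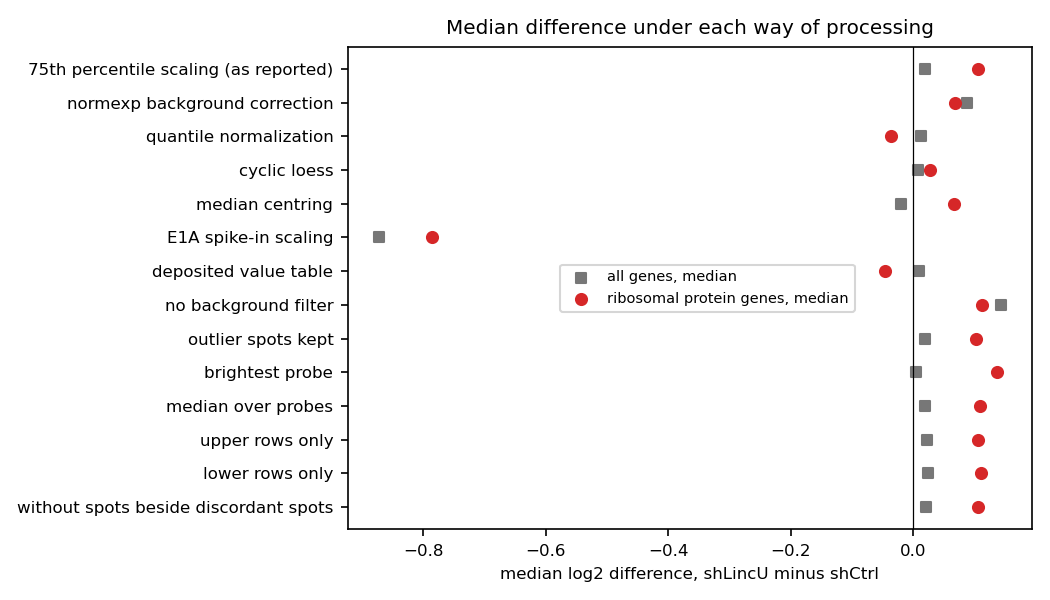
Median log2 difference (horizontal axis) of the ribosomal protein genes (red) and of all genes (grey) under each way of processing. The members' median runs from -0.046 to 0.14 apart from spike-in scaling, where the medians are -0.79 and -0.87.

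Some probes do not point to one gene copy. The array places 7 probes of 4 members (Rpl13, Rpl36, Rps27 and Rps29) on another chromosome than the gene, where processed copies may lie. For Rpl36, the probe placed at the gene read 162700 units on shCtrl and 131700 on shLincU (0.27), and the probe placed on chromosome X read 101100 and 72260 units (0.09). Both probes of Rps27 are placed on chromosome 9, while the gene lies on chromosome 3. Signals of a gene and of its processed copies cannot be told apart for such probes. Of the 186 probes 47 span an intron on the array's map.

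Of the ribosomal proteins under other names, Fau and Rack1 lay within the range of the members. Fau, which encodes Rps30 fused to a ubiquitin-like protein, had a scaled log2 level of 8.61 on shCtrl and 8.86 on shLincU, a difference of 0.25. Rack1, a scaffold on the 40S head, had levels of 7.81 and 7.76 and a difference of -0.047.

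Of the other genes with TOP messages all 24 were measured, with a median of 0.11, 16 above 0 (66.7%, beside 53.1% of all genes) and none 1.5-fold apart (all genes 4.78% higher and 4.84% lower). The elongation factors Eef1b2 and Eef2 had 0.25 each, the initiation factor Eif4b had 0.24, and the snoRNA host gene Snhg8 had 0.41. Spike-in scaling put the list's median at -0.78, while with quantile normalization and in the deposited table it was 0.028 and 0.022, where the median of the ribosomal protein genes was negative.

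Genes that build ribosomes were centred on 0 and varied more. Of 70 biogenesis genes, all measured, 34 were above 0, the median was -0.002 and the SD was 0.24. Tsr2, a chaperone that delivers Rps26 to the 40S precursor, was the only one at least 1.5-fold apart (all genes 4.78% higher and 4.84% lower) and also passed 2-fold (all genes 1.53% lower), with scaled levels of -1.56 on shCtrl and -2.77 on shLincU and a difference of -1.21 from 1 probe. Its client Rps26, a member, had 0.23. The nucleolar protein Ncl had -0.44 with probes 0.66 apart, Bccip, needed for the large subunit, had -0.45, and the RNA acetyltransferase Nat10 had 0.48 with probes 0.064 apart.

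RNA polymerase I, which transcribes ribosomal RNA, had 14 of 14 listed genes measured, with a median of 0.13, 9 above 0 (53.1% of all genes) and none 1.5-fold apart (all genes 4.78% higher and 4.84% lower, so a list of this length would hold few). Its subunit Polr1a had 0.30, its initiation factor Rrn3 0.27 and Taf1b 0.23 with probes 0.99 apart. Polr1b had -0.49 with probes 1.05 apart. Translation initiation and termination factors, 30 of 31 measured, had a median of 0.017, with 16 above 0 and none 1.5-fold apart, beside the same shares of all genes. Eif5b, which joins the subunits, had -0.56, the GTPase activator Eif5 had -0.33, the release factor Etf1 had 0.40 and the scaffold Eif4g1 0.32. Among these other lists, Tsr2 was the only gene past 1.5-fold.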

How the data were processed

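The 2 groups of 1 array each were compared, without a test. The authors' intensity values came from version 10.7.1.1 of Agilent Feature Extraction, as the submitters' processing notes state. Per the file headers they had been background corrected by spatial detrending and by a multiplicative trend. Flags of 0 or 1 marked outlier, saturated and well-above-background spots in other columns that were deposited. The deposited value table holds log2 values with a median of 5.65 in both columns and a rank correlation of 1.00 with the scanner values over 56572 probes. Its slope on their log2 was 0.98 and 1.01, so it runs in the signal's direction, and how it was centred is unknown. Its results lay near those of quantile normalization. It had 234 genes 2-fold higher and 326 lower, beside 236 and 326, and members' medians of -0.046 and -0.036. The 2 settings may therefore not be separate checks. Coordinates are the array's, in build mm9.

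Control and outlier spots were left out, spots of a probe averaged, log2 taken and the 75th percentile subtracted. With 1 array per group, genes were counted by size, at 1.5-fold and 2-fold. The fibroblast, stem cell and translation gene lists, the members and the naming rule were chosen with earlier results of these data known. Named were members 1.5-fold apart, the 6 highest and 6 lowest, those with probes over 1 apart, paralog pairs, stalk genes, 8 genes of known roles, and up to 4 genes per other list. Rpl15, Rpl17, Rpl27a, Rps20, Rps26, Rpl37, Col3a1, Col1a1 and members with probes on other chromosomes fall outside this rule. They were chosen after their values were seen. Genes outside the member list were named through the RefSeq gene table of GRCm38, by accession for 32840 probes and by symbol or synonym for 10191 and 519, while 12869 kept the array's name. Alternatives were normexp (offset 50), quantile normalization, cyclic loess, median centring, E1A scaling, the deposited table, no background filter, outlier spots kept, the brightest or median probe, upper or lower rows, omission of spots beside discordant ones (at least 2 of 14 neighbours 2-fold apart in the same direction), the mean of the list, and subsets of the members. The calculation was tested on simulated data. The software was limma 3.58.1 in R 4.3.3, and pandas 2.3.3, numpy 2.4.6, matplotlib 3.10.9 and scipy 1.17.1 in Python 3.11.15. A gene of the list of ribosomal proteins under other names is not reported here.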

Additional observations from a re-analysis of the deposited data

How the results depend on the processing

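No paired analysis was possible because shCtrl and shLincU have only 1 array apiece. With E1A spike-in scaling the median over all genes shifted by -0.89 and the members' median was -0.79, that of RNA polymerase I at -0.76, of the other TOP messages at -0.78, of ribosomal proteins under other names at -0.78, of biogenesis at -0.89 and of initiation and termination at -0.88. It made 84 of the 87 members 1.5-fold lower, and the share of all genes at 1.5-fold with this scaling is not given here. At 2-fold it made 7 of the 87 members lower. Of all 21018 genes it made 43 higher and 6798 lower at 2-fold, beside 240 and 322 without it. Members were thus 2-fold lower less often than all genes under this scaling. Without the background filter the median over all genes shifted by 0.12. The 2 members 1.5-fold lower (4.84% of all genes were) became 1 with normexp correction. There was 1 among the 85 members at or above the median signal, beside 252 of 10509 genes there. There were 0 among the 77 genes of a ribosomal protein itself and 0 among the 72 in the lower rows. Both counts of 0 were fixed by the choice of genes. The 2 members, Rpl3l and Rpl39l, are paralogs with 1 spot each in the upper rows, so neither subset could hold them. The shares of all genes at 1.5-fold with normexp and in the lower rows are not given here. Apart from spike-in scaling, the members' median ran from -0.046 to 0.14 over 15 alternatives, and relative to the median of all genes from -0.055 to 0.13. With 1 array per group no difference between the groups has a replicate error, and dim probes such as that of Rpl3l are limited by the background.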
